A study of Arabidopsis thaliana with 26 samples.

Results

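The question here was whether the 3′ ends and tails of 5′ ETS degradation intermediates differ between plants whose only RRP41 comes from the RRP41WT transgene and plants with endogenous RRP41. The libraries were chosen by genotype. The 8 libraries of rrp41 RRP41WT, rrp6L2 rrp41 RRP41WT, RRP44KD rrp6L2 rrp41 RRP41WT and mtr4 rrp41 RRP41WT were set against the 8 libraries of Col-0, rrp6L2, RRP44KD rrp6L2 and mtr4, out of 26 libraries in all. Each of the 4 backgrounds thus gives 2 libraries with the transgene and 2 without it. All plants were of the Col-0 accession, the tissue was rosette leaves, and replicates were plants grown at different times. In the RRP41WT genotypes the T-DNA allele rrp41 removes the endogenous protein, and a genomic copy of RRP41 under its own upstream region replaces it. By the study's methods, RRP41 carried a C-terminal myc or GFP tag in these plants, and the sources used here do not say which tag each library had. The alleles rrp6L2 and mtr4 are T-DNA insertions and are shared by both plants of a comparison. RRP44KD is an artificial miRNA against RRP44 driven by a promoter specific to mesophyll cells, and its extent in other leaf cells was not measured here. By the study's methods, RRP44KD plants were derived from transformants chosen for a like level of P-P′.

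The RNA exosome degrades RNA from the 3′ end. Its ring-shaped core, Exo9, is without activity in yeast and human, whereas in plants its subunit RRP41 keeps a phosphorolytic site that releases nucleoside diphosphates. RRP6L2 and RRP44 are hydrolytic exoribonucleases that work with the core in the nucleus, and MTR4 is the RNA helicase that feeds nucleolar substrates to it. The P-P′ fragment is cut out of the transcribed spacer at the 5′ side of the rRNA precursor (5′ ETS). It is a by-product without known function that the exosome removes. The shortened P-P1 molecules are its degradation intermediates, and P161, P168, P176 and P186 are those named by the position of their last nucleotide, counted from the first nucleotide of P-P′. Nuclear poly(A) polymerases add short adenosine tails to many exosome substrates and so give the enzymes a single-stranded start. In 3′RACE-seq an adapter is ligated to RNA 3′ ends, so that each read gives the last encoded nucleotide and any nucleotides added after it.

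The stretch of the 5′ ETS from 140 to 200 is shown because all positions tested singly lie in it, with the last bases of P161, P168, P176 and P186 in capitals.
5′ ETS, 140 to 200: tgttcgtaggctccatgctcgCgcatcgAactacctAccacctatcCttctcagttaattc
The same stretch was found on the plus strand of TAIR10.1 at chr2:3283-3343 and chr3:14197254-14197314, in each case ending 363 nt before the start of an 18S rRNA gene (AT2G01010 and AT3G41768), and at chr2:7191300-7191360 inside the annotated gene AT2G16586. The authors mapped reads to the rRNA repeat unit and not to this assembly, so reads cannot be assigned to a copy. The ends of the main intermediates, with the last encoded base in capitals, are given next, since recorded tails depend on the bases beside them.
P161: ttcgtaggctccatgctcgC
P168: gctccatgctcgcgcatcgA
P176: ctcgcgcatcgaactacctA
P186: gaactacctaccacctatcC
An adenosine added to P167 or P175 has the letter that the template has there, and is therefore recorded as P168 or P176 without a tail. In the same way, an adenosine added to P163, P168 or P171 is recorded as P164, P169 or P172 without a tail. The base after P161, P176 and P186 is not A. The most frequent tail of at least 2 nt on both P161 and P176 was AA, with 208 and 578 reads over the 16 libraries, and it is shown in capitals.
P161 with tail: ttcgtaggctccatgctcgcAA
P176 with tail: ctcgcgcatcgaactacctaAA

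The 8 RRP41WT libraries held 3174 to 23152 deduplicated reads, and the 8 libraries with endogenous RRP41 held 1634 to 22465. Ends from 140 to 200 made up 88.8 to 96.4% of the reads of RRP41WT libraries and 86.0 to 95.7% of those with endogenous RRP41. A count of 0 allows a share of up to 0.0130 to 0.0945% in the libraries of RRP41WT and of up to 0.0134 to 0.184% in those of endogenous RRP41 (3 reads of the total). Both these limits and the Wilson intervals quoted further on describe counting error alone. Replicates of a genotype differed by more than sampling noise, with a chi-square per degree of freedom of 6.84 to 25.9. The error of every comparison is therefore the spread between libraries. The labels say that some libraries were sequenced in more than 1 run without naming them, so runs were not compared.

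RRP41 itself is not read by this amplicon. P161 and P176 were set beside the 8 libraries of the same backgrounds with catalytically inactive RRP41Pi-Cat-. The study chose these 2 ends from the same libraries, as those lost without RRP41 activity, so this is no independent check of the labels. It also cannot tell RRP41WT libraries from those with endogenous RRP41. P161 was at 1.97 to 12.7% of reads in RRP41WT libraries, against 0.129 to 1.51% in RRP41Pi-Cat- libraries. P176 was at 4.22 to 13.5% in RRP41WT libraries and at 0.236 to 7.11% in RRP41Pi-Cat- libraries, and within each background the groups did not overlap.

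P161, the shortest of the main intermediates, differed little between plants with RRP41WT and plants with endogenous RRP41. Its share was 12.7 and 8.85% in rrp41 RRP41WT, against 12.9 and 10.04% in Col-0 (replicates 1 and 2). In the rrp6L2 background it was 9.05 and 4.68% with RRP41WT, against 9.74 and 5.67% without the transgene. Replicate 2 was below replicate 1 in both groups of these backgrounds. In the RRP44KD rrp6L2 background it was 4.25 and 1.97% with RRP41WT and 5.38 and 2.25% with endogenous RRP41. In mtr4 it was 4.30 and 6.34% with RRP41WT and 5.004 and 5.67% with endogenous RRP41. The groups overlapped in all 4 backgrounds, and replicates of a genotype were further apart than the groups. P161 averaged 6.52 ± 3.46% with RRP41WT and 7.09 ± 3.48% with endogenous RRP41 (SD over 8 libraries each, backgrounds included). Their difference, RRP41WT minus endogenous RRP41, was −0.571 percentage points (95% interval −2.73 to 1.56, p = 0.534, adjusted p = 0.901 in the exact permutation test). This and all further p-values come from two-sided exact permutation tests of the mean difference, with labels permuted within backgrounds, in which 0.00154 is the smallest p that can be reached. P161 was lower with RRP41WT in 7 of 8 same-numbered pairs, and the exact permutation test within replicate numbers gave p = 0.0391 with an adjusted p of 0.731.

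P168 showed the smallest difference of the 4 intermediates. It averaged 5.69 ± 4.91% with RRP41WT and 5.78 ± 4.34% with endogenous RRP41 (SD, 8 libraries each), a difference of −0.0812 percentage points (−1.75 to 1.62, p = 0.900 in the exact permutation test, adjusted p = 0.951). The highest value of all 16 libraries was 15.8%, in rrp41 RRP41WT replicate 2, and the lowest was 1.57%, in RRP44KD rrp6L2 replicate 2. The sign of this difference is not a stable quantity, since the share of reads within 1 nt of P168 was 0.290 percentage points higher with RRP41WT.

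P176 was at 9.07 and 4.22% in rrp41 RRP41WT, against 7.13 and 7.59% in Col-0. In the rrp6L2 background it was at 9.83 and 13.4% with RRP41WT and at 9.33 and 10.6% with endogenous RRP41. In both backgrounds the libraries with endogenous RRP41 lay closer together than those with RRP41WT. In the RRP44KD rrp6L2 background the values were 12.9 and 13.5% with RRP41WT, against 13.6% in both libraries of RRP44KD rrp6L2. In mtr4 they were 13.3 and 10.2% with RRP41WT and 13.3 and 9.80% with endogenous RRP41. The background set the level of P176 more than the source of RRP41 did, and all libraries under 9% were of the Col-0 background. The mean difference was 0.177 percentage points (−1.83 to 2.07, p = 0.824 in the exact permutation test, adjusted p = 0.951), and 4 of 8 pairs were higher with RRP41WT.

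P186, the longest of the 4, had differences of opposite sign in the Col-0 and rrp6L2 backgrounds. It was at 11.03 and 11.9% in rrp41 RRP41WT, against 9.63 and 8.996% in Col-0. In rrp6L2 rrp41 RRP41WT it was at 5.44 and 7.41%, against 8.44 and 11.01% in rrp6L2. The groups did not overlap in these backgrounds, with changes of 2.14 and −3.30 percentage points, while the RRP44KD rrp6L2 and mtr4 backgrounds differed by 0.0836 and −0.0433. With 2 libraries against 2, the smallest p of a single background is 0.333, so no background can be tested alone. Over all 4, the mean difference was −0.280 percentage points (−2.18 to 1.62, p = 0.748 in the exact permutation test, adjusted p = 0.951).

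**Figure D1:**
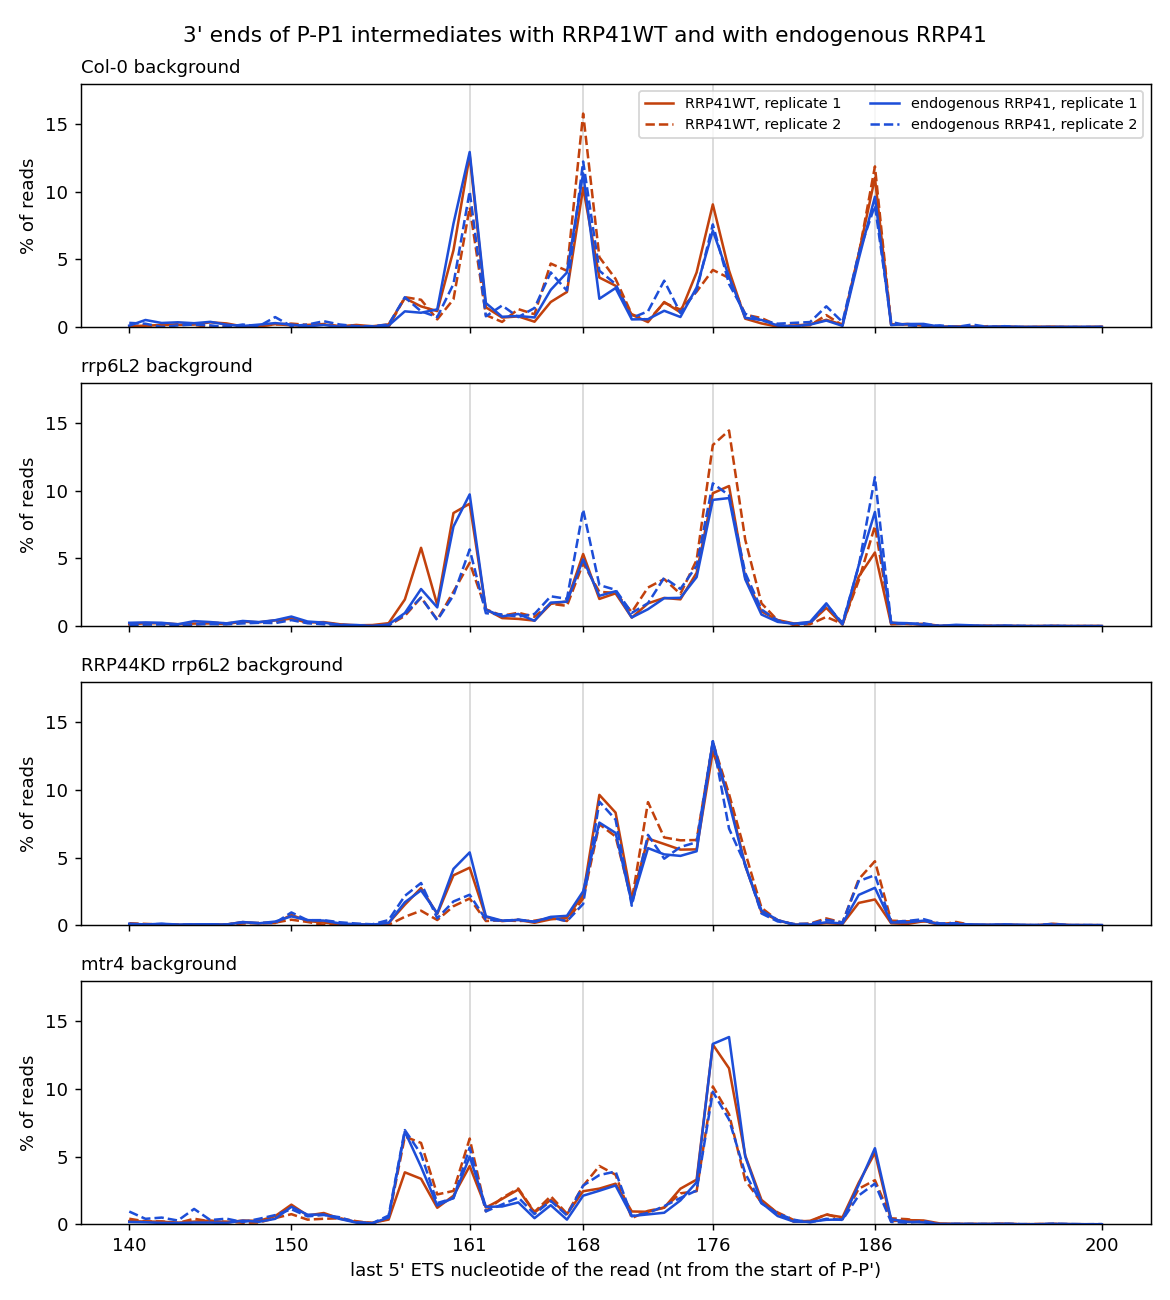
Share of reads (% of all reads of the library) that end at each position from 140 to 200, with 1 panel per background and 1 line per library. RRP41WT lines are orange and lines with endogenous RRP41 are blue, and grey lines mark P161, P168, P176 and P186. In the RRP44KD rrp6L2 background, for example, P176 lies at 12.9 and 13.5% with RRP41WT and at 13.6% in both libraries with endogenous RRP41.

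Across the 61 positions from 140 to 200, 0 passed an adjusted p of 0.05 (0% called) and 0 passed at an unadjusted p of 0.05 in the exact permutation test with Benjamini-Hochberg adjustment. Within replicate numbers 0 passed after adjustment, and 3 passed unadjusted (4.92%), which were P161, P171 and P175. With a smallest p of 0.00154, and of 0.00781 within replicate numbers, a lone position could not pass adjustment over 61. The counts of 0 after adjustment thus do not show that no position differs. On average the difference was smaller than the SD between replicates at 60 of 61 positions, with a median absolute difference of 0.0456 percentage points. RRP41WT was higher at 23 positions and lower at 38. The 95% intervals were 0.319 percentage points wide at the median and 4.87 at the widest.

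P177 had the largest difference of the scan. It was at 4.18 and 3.62% in rrp41 RRP41WT, against 3.72 and 3.18% in Col-0, and at 10.4 and 14.5% in rrp6L2 rrp41 RRP41WT, against 9.47 and 9.67% in rrp6L2. RRP41WT was higher in 7 of 8 pairs, and the pair that went the other way was mtr4 replicate 1, with 11.5% in mtr4 rrp41 RRP41WT and 13.8% in mtr4. Averaged over backgrounds, the difference was 0.939 percentage points (−1.34 to 2.95, p = 0.355 in the exact permutation test, adjusted p = 0.901).

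P172 is an end that stood out in the RRP44KD rrp6L2 background, where it was at 6.41 and 9.10% with RRP41WT and at 5.70 and 6.68% with endogenous RRP41. Elsewhere it ranged from 0.364 to 2.85% with RRP41WT and from 0.580 to 1.69% with endogenous RRP41. The mean difference was 0.520 percentage points (−0.249 to 1.43, p = 0.259 in the exact permutation test). The share of P172 can hold P171 molecules with an added adenosine, and how many it holds was not tested. P157 was found in all backgrounds and was highest in mtr4, with 3.84 and 6.48% in mtr4 rrp41 RRP41WT, against 6.86 and 6.96% in mtr4. Its mean difference was −0.422 (−1.51 to 0.465), with changes of −1.75 in mtr4, −0.864 in RRP44KD rrp6L2, 0.441 in rrp6L2 and 0.487 in Col-0. P169 and P178 differed by 0.381 (−0.722 to 1.52) and 0.362 percentage points (−0.538 to 1.30).

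The 3 positions of smallest p were P195, P171 and P164. P171 was at 0.911 and 0.945% in rrp41 RRP41WT, against 0.563 and 0.673% in Col-0, and at 1.93 and 1.81% in RRP44KD rrp6L2 rrp41 RRP41WT, against 1.66 and 1.44% in RRP44KD rrp6L2. These groups did not overlap, whereas those of the rrp6L2 and mtr4 backgrounds did. The mean difference at P171 was 0.188 percentage points (−0.0264 to 0.374, p = 0.0694 in the exact permutation test, adjusted p = 0.892). P164 differed by 0.2501 percentage points (−0.0730 to 0.547, p = 0.113 in the exact permutation test), most of it in mtr4, where it was at 2.57 and 2.64% with RRP41WT and at 1.62 and 1.98% with endogenous RRP41. P195 was at 0.0267% or less in all 16 libraries, which is under the limit that a count of 0 allows in several of them, and is not read as a difference. The sign was the same in all 4 backgrounds at 6 of 61 positions, P144, P161, P171, P175, P181 and P195. Signs of 4 backgrounds also agree by chance at some positions, and this count is not read as a result.

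**Figure D2:**
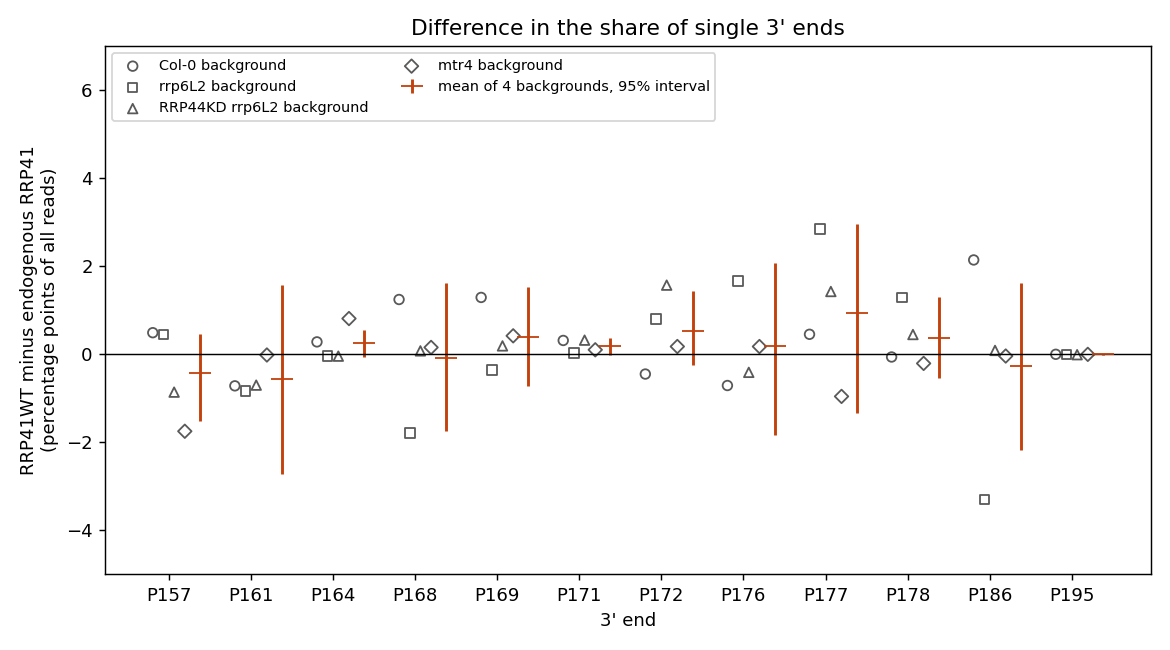
Difference in the share of reads (percentage points, RRP41WT minus endogenous RRP41) at 12 named 3′ ends. Open symbols are the 4 backgrounds, and the orange bar is their mean with its 95% interval from the inverted exact permutation test. All intervals include 0, and the widest spread of backgrounds is at P186, from −3.30 in rrp6L2 to 2.14 in Col-0.

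Neighbouring ends were also summed in 11 windows that together hold all reads. In the exact permutation test 0 of 11 passed after adjustment (0%), and 0 passed at an unadjusted p of 0.05. Within replicate numbers 1 of 11 passed unadjusted (9.09%), P161 to P162, with an adjusted p of 0.286. Ends from P171 to P175 had the largest difference, with 14.0% of reads with RRP41WT and 12.6% with endogenous RRP41, or 1.46 percentage points (−0.647 to 3.63, p = 0.154 and adjusted p = 0.566 in the exact permutation test). In this window 7 of 8 pairs were higher with RRP41WT, and the background means were 3.68 points apart in RRP44KD rrp6L2 and 0.177 apart in Col-0. Ends from P176 to P177 were at 19.7% with RRP41WT and 18.6% with endogenous RRP41. Ends from P140 to P156 were at 3.36% with RRP41WT and 4.22% with endogenous RRP41, a difference of −0.858 (−1.99 to 0.200, p = 0.114 in the exact permutation test). Ends before 140 were at 4.68% with RRP41WT and at 5.24% with endogenous RRP41.

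Tails of at least 1 nt were on 22.8 ± 9.60% of reads with RRP41WT and on 20.8 ± 8.55% with endogenous RRP41 (SD, 8 libraries each). The difference was 1.98 percentage points (−1.41 to 5.61, p = 0.259 in the exact permutation test, adjusted p = 0.475). A single added base can be a polymorphism of the repeat, so tails of at least 2 nt were counted as well. They were on 5.07 and 2.58% of reads in rrp41 RRP41WT, against 4.80 and 3.79% in Col-0, and on 14.4 and 8.10% in rrp6L2 rrp41 RRP41WT, against 10.3 and 5.50% in rrp6L2. In the RRP44KD rrp6L2 background they were on 21.5 and 17.8% of reads with RRP41WT, against 19.7 and 17.4% with endogenous RRP41, and in mtr4 on 7.97 and 11.3% with RRP41WT and 7.53 and 8.27% with endogenous RRP41. RRP41WT libraries were higher in 7 of 8 pairs, and the groups overlapped in all 4 backgrounds. On average the difference was 1.42 percentage points (−1.03 to 4.06, p = 0.25 in the exact permutation test, adjusted p = 0.475).

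The tails of 2 to 30 nt were longer with RRP41WT in 8 of 8 same-numbered pairs, by an amount that did not pass the test. Their mean length was 5.03 and 5.67 nt in rrp41 RRP41WT, against 3.92 and 5.23 nt in Col-0. It was 8.25 and 6.35 nt in rrp6L2 rrp41 RRP41WT, against 7.42 and 5.33 nt in rrp6L2. In the RRP44KD rrp6L2 background it was 7.65 and 7.10 nt with RRP41WT and 7.35 and 6.81 nt with endogenous RRP41. The mtr4 background was the only one whose groups did not overlap, with 6.71 and 6.74 nt with RRP41WT and 6.21 and 6.43 nt with endogenous RRP41. Averaged over backgrounds, the difference was 0.599 nt (−0.169 to 1.43, p = 0.128 in the exact permutation test, adjusted p = 0.475). Within replicate numbers p was 0.00781, the smallest that this exact permutation test can give, and the adjusted p was 0.0573. The length in the Col-0 background rests on few molecules, with 362 and 82 tails in rrp41 RRP41WT and 563 and 62 in Col-0. Without that background the difference was 0.539 nt (p = 0.259 in the exact permutation test), an alternative chosen after seeing the data.

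Of tails of at least 2 nt, 44.0% had 6 nt or more with RRP41WT and 39.7% with endogenous RRP41, and the share was higher with RRP41WT in 8 of 8 pairs. In Col-0 replicate 1 it was lowest, at 16.3%, against 30.4% in the same-numbered library of rrp41 RRP41WT. Tails of 6 nt or more were retained by the authors only with a stretch of AAA or TTT, so this class is defined in part by its letters. The longer ones needed more such stretches. Runs of 6, 7 and 8 adenosines were the most frequent of them, with 851, 756 and 686 reads over the 16 libraries. The mean length within tails of 2 to 5 nt, to which that filter does not apply, was 0.131 nt longer with RRP41WT (p = 0.00463 in the exact permutation test, adjusted p = 0.0509).

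Adenosine made up 89.7% of the bases in tails of 2 to 30 nt with RRP41WT and 87.5% with endogenous RRP41, a difference of 2.20 percentage points (−0.704 to 5.36, p = 0.164 in the exact permutation test, adjusted p = 0.475). Values were 81.9 and 86.5% in rrp41 RRP41WT, against 76.1 and 83.0% in Col-0, and 92.2 and 88.8% in rrp6L2 rrp41 RRP41WT, against 90.6 and 83.4% in rrp6L2. In the other backgrounds all libraries lay from 91.3 to 92.7% with RRP41WT and from 90.3 to 92.6% with endogenous RRP41. Cytidine was at 1.27% with RRP41WT and at 1.95% with endogenous RRP41. Its difference of −0.681 percentage points was the only 1 of 11 tail measures with an unadjusted p under 0.05 (−1.49 to −0.0172, p = 0.0370 in the exact permutation test, adjusted p = 0.407, 9.09% of the measures). 0 of 11 passed after adjustment (0%), and within replicate numbers 3 passed unadjusted (27.3%) and 0 adjusted. Thymidine, which stands for uridine, was at 4.27% with RRP41WT and 5.02% with endogenous RRP41, and guanosine was at 4.81% with RRP41WT and 5.57% with endogenous RRP41.

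The 6 most frequent tails were a single A, G or T and runs of 2, 3 or 4 adenosines, with 14689 reads of a single A over the 16 libraries. A single A made up 40.5 ± 5.81% of all tails with RRP41WT and 41.6 ± 6.77% with endogenous RRP41 (SD, 8 libraries each). Of the tails of 1 nt, 74.8% were A with RRP41WT and 73.9% with endogenous RRP41. A run of 4 adenosines was at 0.630 to 4.78% of tails with RRP41WT and at 0.509 to 4.27% with endogenous RRP41, higher with RRP41WT in 7 of 8 pairs.

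**Figure D3:**
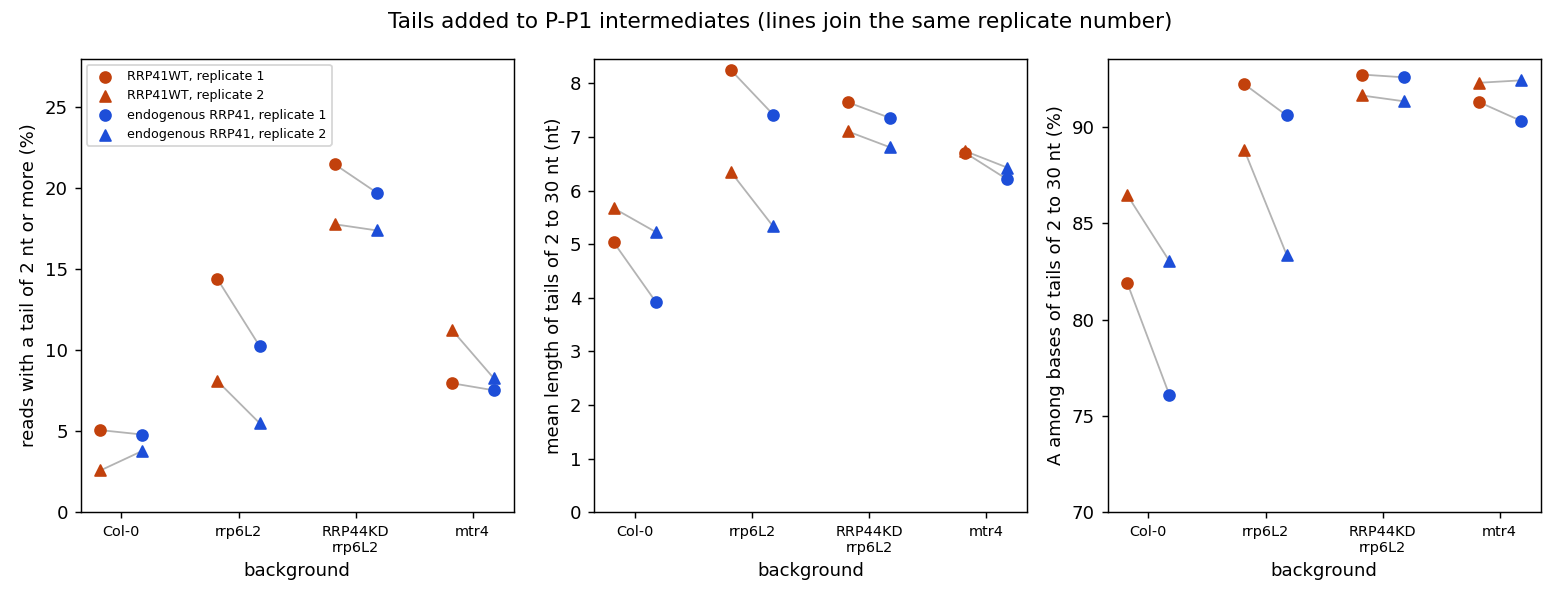
Reads with a tail of at least 2 nt (% of reads, left), mean length of tails of 2 to 30 nt (nt, middle) and adenosine among their bases (%, right, axis from 70%) in each library, with RRP41WT left of endogenous RRP41 in each background. Lines join libraries of the same replicate number, and the line of mean length falls toward endogenous RRP41 in 8 of 8 pairs.

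The share of tailed molecules was then taken at the 11 positions that held at least 30 reads in every library. P161 and P176 carried tails of at least 1 nt in both groups, on 30.4 and 31.3% of their reads with RRP41WT and on 31.2 and 31.6% with endogenous RRP41. P168 and P186 were tailed on 3.86 and 2.54% with RRP41WT and on 4.50 and 1.85% with endogenous RRP41. As an adenosine added to P168 is recorded as an untailed P169, the share at P168 is not comparable with those at P161, P176 and P186. The differences were −0.768 (−6.60 to 4.79) percentage points at P161, −0.278 (−10.1 to 8.81) at P176, −0.635 (−3.07 to 1.51) at P168 and 0.684 (−0.188 to 1.86) at P186. The 95% Wilson interval of a single library was up to 20.1 percentage points wide at P161 and up to 14.6 at P176.

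In the exact permutation test 0 of 11 positions passed after adjustment (0%), and 1 passed unadjusted (9.09%), P173. At P173, 35.5% of reads were tailed with RRP41WT and 30.1% with endogenous RRP41, a difference of 5.45 percentage points (0.0696 to 11.05, p = 0.0478 and adjusted p = 0.526 in the exact permutation test). The RRP44KD rrp6L2 background had the highest values, 64.5 and 61.5% with RRP41WT and 65.8 and 56.1% with endogenous RRP41. P177 was tailed on 46.8% of reads with RRP41WT and on 42.7% with endogenous RRP41, with 58.0 and 26.9% in the replicates of Col-0. P169 ranged over the backgrounds from 3.05 to 80.6% with RRP41WT and from 4.08 to 78.8% with endogenous RRP41, and in both groups the RRP44KD rrp6L2 background was at the top. Runs of at least 2 adenosines added to P168 are recorded as tails of P169, shorter by 1 nt.

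The place of the tails along the fragment was compared as well. Of all tailed reads, 11.97% ended at P161 to P162 with RRP41WT and 15.4% with endogenous RRP41, lower with RRP41WT in 7 of 8 pairs. These shares were 25.7 and 20.8% in rrp41 RRP41WT, against 28.4 and 35.9% in Col-0, the only background without overlap. The difference was −3.44 percentage points (−7.19 to 0.0539, p = 0.0540 in the exact permutation test, adjusted p = 0.512). Tailed reads that ended at P176 to P177 made up 35.2% with RRP41WT and 34.0% with endogenous RRP41, and those from P171 to P175 made up 13.0% with RRP41WT and 10.9% with endogenous RRP41. Mean tail length by place, an alternative chosen after seeing the data, was 7.34 nt with RRP41WT and 6.25 nt with endogenous RRP41 at P161 to P162. At P176 to P177 it was 4.84 nt with RRP41WT and 4.23 nt with endogenous RRP41, higher with RRP41WT in 7 of 8 pairs. From P171 to P175 it was 5.38 nt with RRP41WT and 5.73 nt with endogenous RRP41, higher with RRP41WT in 2 of 8 pairs. Tails were few in the Col-0 background, at 13 to 94 a library at P161 to P162, 6 to 16 from P171 to P175 and 9 to 194 at P176 to P177. At P176 to P177 this background had the largest difference, 1.31 nt, with 9 tails in rrp41 RRP41WT replicate 2 and 12 in Col-0 replicate 2.

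Molecules also carried a variant base. Some reads had T and others C at the T137C site, which lies before all the main ends and was read in molecules that end at P157 or later. The stretch around it is shown to place the variant, with 10 bases before it.
Stretch with T: atcggatagcTagtgttcgt
Stretch with C: atcggatagcCagtgttcgt
The capital marks the site, and T137C gives the reference base first. T137C was at 69.6 and 80.1% in rrp41 RRP41WT, against 55.8 and 54.1% in Col-0, and these did not overlap. It was at 43.1 and 34.4% in rrp6L2 rrp41 RRP41WT, against 34.4 and 40.6% in rrp6L2, and at 47.6 and 43.0% in RRP44KD rrp6L2 rrp41 RRP41WT, against 47.0 and 41.5% in RRP44KD rrp6L2. In mtr4 rrp41 RRP41WT the replicates were 25.8 and 50.9%, against 31.9 and 32.2% in mtr4. The mean difference was 7.12 percentage points (−2.03 to 15.8, p = 0.114 in the exact permutation test). Without mtr4 rrp41 RRP41WT replicate 1 it was 10.3 percentage points (exact permutation p = 0.0216), and without the Col-0 background it was 2.84 (p = 0.648, chosen after seeing the data). Omission of that 1 library thus moved the p across 0.05.

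The 5′ ETS variants had different ends. In every library P168 was higher, and P176 lower, among reads with C than among reads with T. Shares by base were taken of the reads with that base that end from P157 to P200, and not of all reads. With RRP41WT, P168 averaged 7.70% in reads with C and 4.54% in reads with T, and P176 averaged 10.2 and 13.9%. With endogenous RRP41 these were 8.40 and 5.11% for P168 and 9.70 and 13.9% for P176. Molecules with C are not recorded at the 17 positions from P140 to P156. Shares at these ends thus count molecules with T only, over all reads. How far the variant mix moved the pooled shares was not tested. P157 to P200 were also compared between RRP41WT and endogenous RRP41 within reads of either base. In the exact permutation test 0 of 44 positions passed after adjustment among reads with T and 0 of 44 among reads with C, and 0 passed unadjusted in either. At the smallest p of 0.00154, a lone position could not pass adjustment over 44. Mean tail length was 6.31 nt with RRP41WT and 5.65 nt with endogenous RRP41 in reads with T, and 6.74 nt with RRP41WT and 6.34 nt with endogenous RRP41 in reads with C. It was longer with RRP41WT in 7 of 8 pairs in each.

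**Figure D4:**
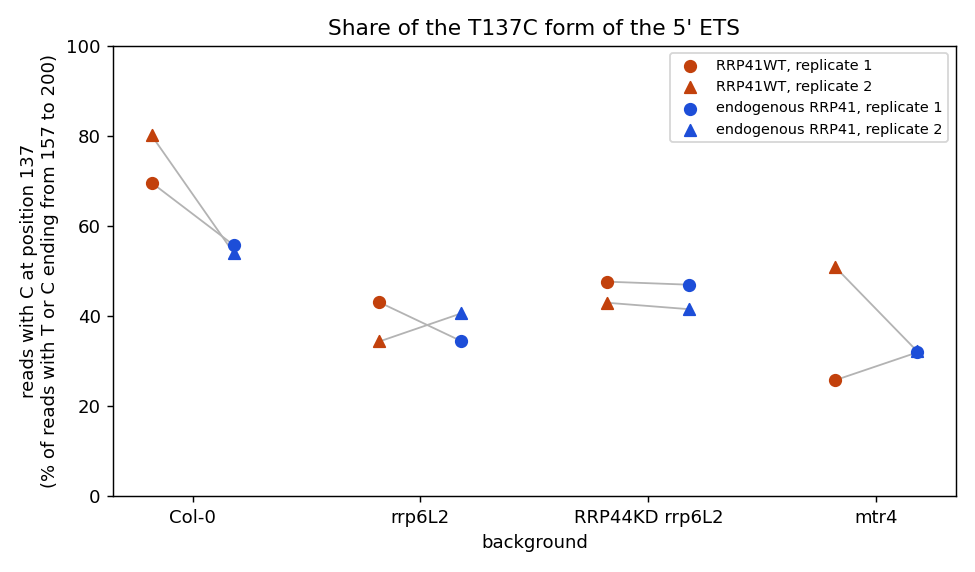
Reads with C at the T137C site (% of reads with T or C that end from P157 to P200) in each library, with RRP41WT left of endogenous RRP41 in each background and lines joining the same replicate number. The groups are apart in the Col-0 background, and the replicates of mtr4 rrp41 RRP41WT lie at 25.8 and 50.9%.

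The same 8 RRP41WT libraries were set against RRP41Pi-Cat- of the same backgrounds to give a scale for the differences above. In that comparison 31 of 61 positions passed an adjusted p of 0.05 in the exact permutation test (50.8%), as did 9 of 11 windows (81.8%) and 4 of 11 tail measures (36.4%). The largest difference at a single position was −8.78 percentage points, at P166, with 0.431 to 4.69% of reads with RRP41WT and 2.04 to 22.1% with RRP41Pi-Cat-. To endogenous RRP41 the largest was 0.939, at P177. The absolute difference to RRP41Pi-Cat- was larger than that to endogenous RRP41 at 46 of 61 positions. Since both comparisons hold the same RRP41WT libraries, these counts are given side by side and not as separate evidence.

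By window, ends from P176 to P177 were 15.4 percentage points higher with RRP41WT than with RRP41Pi-Cat- (11.3 to 19.6, adjusted p = 0.00340 in the exact permutation test), and the difference to endogenous RRP41 was 1.12 (−2.78 to 4.88). Ends from P163 to P167 were lower with RRP41WT than with RRP41Pi-Cat-, by −14.7 percentage points (−21.8 to −8.66), and differed from endogenous RRP41 by 0.0871 (−1.57 to 1.58). Ends from P185 to P187 differed by −9.66 percentage points from RRP41Pi-Cat- (−13.5 to −5.93) and by −0.463 from endogenous RRP41 (−2.77 to 2.03). For ends from P161 to P162 the difference was 6.33 to RRP41Pi-Cat- (3.36 to 9.25) and −0.585 to endogenous RRP41 (−2.99 to 1.70). The intervals of both comparisons did not overlap in these 4 windows. They overlapped for ends before P140, from P171 to P175, from P178 to P184 and from P188 on.

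Tails showed a smaller contrast. Reads with a tail of at least 1 nt were 6.89 percentage points more frequent with RRP41WT than with RRP41Pi-Cat- (3.51 to 10.4, adjusted p = 0.0170 in the exact permutation test), beside 1.98 to endogenous RRP41. For tails of at least 2 nt it was 1.21 to RRP41Pi-Cat- (−1.78 to 4.25, adjusted p = 0.438 in the exact permutation test), beside 1.42 to endogenous RRP41. Adenosine among tail bases differed by −2.22 percentage points from RRP41Pi-Cat- (−4.26 to −0.198) and by 2.20 from endogenous RRP41. These 2 measures thus did not set RRP41Pi-Cat- further from RRP41WT than endogenous RRP41 by more than the intervals. Mean tail length differed by −1.30 nt from RRP41Pi-Cat- (−2.28 to −0.272, adjusted p = 0.0509 in the exact permutation test) and by 0.599 nt from endogenous RRP41. T137C was 49.3% with RRP41WT, 69.9% with RRP41Pi-Cat- and 42.2% with endogenous RRP41. Its difference to RRP41Pi-Cat- was −20.6 percentage points (−33.5 to −8.09, p = 0.0123 in the exact permutation test). In the Col-0 background it was 2.09, and only there did the groups overlap. The comparison with RRP41Pi-Cat- thus also sets different variant mixes side by side. How far this entered its differences in ends and tails was not tested.

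**Figure D5:**
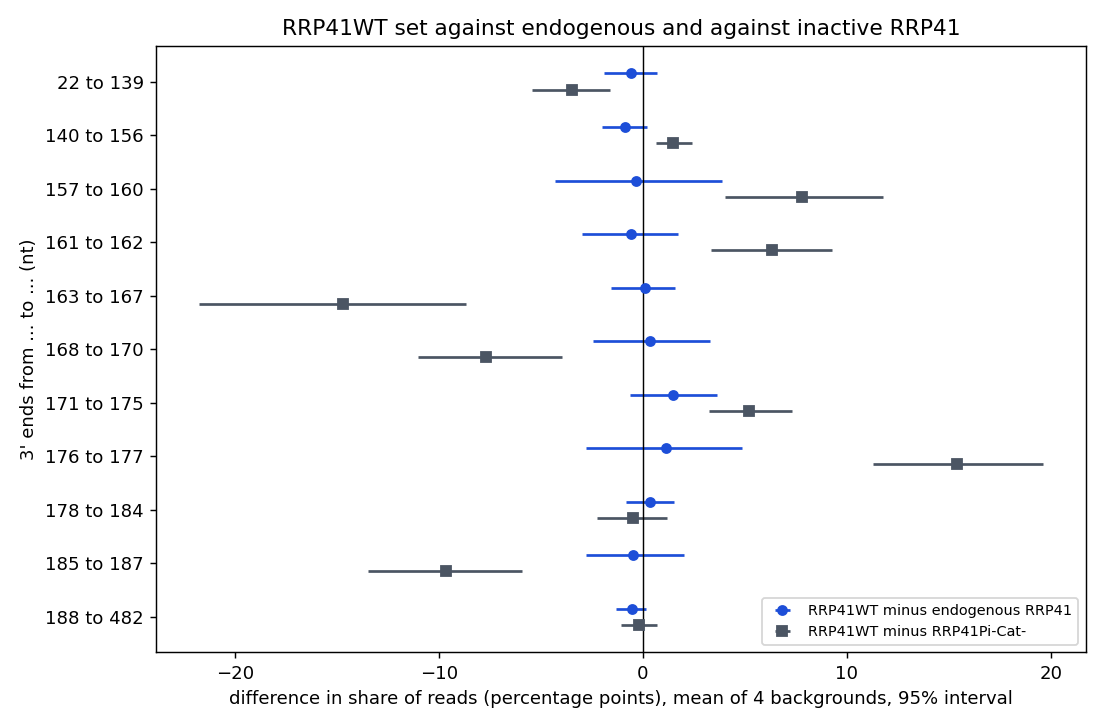
Mean difference over 4 backgrounds in the share of reads (percentage points) for 11 windows of 3′ ends, with 95% intervals. Blue circles are RRP41WT minus endogenous RRP41 and grey squares are RRP41WT minus RRP41Pi-Cat-, from the same 8 RRP41WT libraries. The circles lie from −0.858 to 1.46 and all intervals include 0, whereas the squares reach from −14.7 to 15.4.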

How the data were processed

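The authors ligated an adapter with random bases to total RNA, selected RNA by size, amplified from a primer in the 5′ ETS, removed duplicates by read and random bases, and mapped the reads to the rRNA repeat. Reads without an exact match were trimmed from the 3′ end, and up to 30 nt so removed were recorded as the tail. The values deposited by the authors are, for each read, its last matching position and its tail, with no normalization. The last 20 nt before a tail match the reference exactly, so a molecule with a variant base there is not recorded at that end. Percentages of all reads of a library were computed here with Python 3.11.15, numpy 2.4.6, pandas 2.3.3 and scipy 1.17.1, and drawn with matplotlib 3.10.9.

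Libraries were the units. Labels were permuted within the 4 backgrounds (1296 relabelings), and 95% intervals came from inverting the same two-sided exact test. P-values were adjusted by Benjamini-Hochberg over 61 positions, 11 windows, 11 tail measures or 11 positions. Positions named are P161, P168, P176 and P186, the 6 with the largest absolute mean difference and the 3 of smallest p, and tails named are the 6 most frequent. Other ends in the text, P173 and P166 among them, were chosen with their values in view. The members, lists and tests were chosen with earlier results of these data known.

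Replicate numbers come from the sample labels. Same-numbered libraries deviated together over the 61 positions in all 4 backgrounds (r = 0.520, 0.706, 0.393 and 0.802 for Col-0, rrp6L2, RRP44KD rrp6L2 and mtr4), so tests were also run within numbers (256 relabelings, smallest p 0.00781). At that smallest p, a lone position, window or tail measure could not pass adjustment over 61 or 11. Alternatives were reads from 140 to 200 or untailed reads only, libraries thinned to 1634 reads, other tail lengths, read minimums and the omission of each library. Scans by T137C base, tail measures by place or length class and the omission of the Col-0 background were added after seeing the data.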

Additional observations from a re-analysis of the deposited data

Results flagged for a closer look

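The change of P186 between RRP41WT and endogenous RRP41 differed between backgrounds at an unadjusted p of 0.0381 and an adjusted p of 0.343 over 9 results. The exact permutation test moved the 8 within-number changes over the backgrounds (105 arrangements, smallest p 0.00952). The changes, RRP41WT minus endogenous RRP41, were 1.396 and 2.88 percentage points in Col-0, −3.00 and −3.60 in rrp6L2, −0.864 and 1.03 in RRP44KD rrp6L2 and −0.336 and 0.2497 in mtr4. Within each arm, 0 of 18 groups held a library far from the other 7. The 8 libraries of an arm span 4 backgrounds of different levels, so a library that departs from its own genotype can be missed.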

How the results depend on the processing

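Of 247 alternatives over 12 results, 232 kept the direction and the side of the threshold. This total is not a measure of robustness. No main result had passed the threshold, 192 alternatives only left out 1 library, and counts that stayed at 0 have no direction. No count of called positions, windows or tailed positions left 0 under any alternative run. P168 turned to 0.290 percentage points when reads within 1 nt were counted. With each library left out in turn, differences ranged from −1.12 to −0.0245 for P161, from −0.767 to 0.604 for P168, from −0.428 to 0.783 for P176 and from −0.634 to 0.0734 for P186. They ranged from 1.11 to 2.85 for tails of at least 1 nt, from 0.635 to 2.21 for those of at least 2 nt, from 0.339 to 0.860 nt for mean length, from 1.29 to 3.10 for adenosine and from 3.98 to 10.3 for T137C. The call on T137C appeared only without mtr4 rrp41 RRP41WT replicate 1. The sign turned under 7, 4 and 3 alternatives for P168, P176 and P186, and the cause was not tested. The replicate block, with p = 0.00781 and an adjusted p of 0.0573 for mean tail length in the exact permutation test, changed no call. In that block a lone position, window or tail measure could not pass adjustment, so unchanged calls there carry little weight. The smallest library, Col-0 replicate 2, held 1634 reads and 62 tails, and without it mean tail length differed by 0.763 nt. With a minimum of 100 reads per library, 2 positions were left for the tailed share.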
